A study of Mus musculus with 72 samples.

Results

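The Ugt1a glucuronosyltransferases are liver enzymes made from a single stretch of mouse chromosome 1. The 7 genes described here, Ugt1a1, Ugt1a2, Ugt1a5, Ugt1a6a, Ugt1a6b, Ugt1a9 and Ugt1a10, were taken by symbol from a table of 21400 genes. The table splits a gene into features, each counted with its own pair of detector oligos, and 12 of its 30146 features carried one of these 7 symbols. A filter on low counts left 10 of the 12 for testing, as it left 17050 features of the whole table.

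The livers came from female B6C3F1 mice, a first-generation cross of inbred strains, 9 to 11 weeks old and housed singly. They drank water with tertiary butyl alcohol (TBA), an organic solvent, at 10, 20 or 40 mg/mL, or water without it (0 mg/mL, the controls), for 14 or 28 d. Each of the 8 groups held 9 animals with 1 library each, made by TempO-Seq, in which pairs of oligos are ligated on the RNA and counted by sequencing, from scrapings of fixed, paraffin-embedded liver sections. The series addresses whether thyroid tumours of female mice given TBA could follow from a loss of thyroid hormone.

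Glucuronosyltransferases attach glucuronic acid, taken from UDP-glucuronic acid, to lipophilic molecules, so that the products can leave in bile or urine. Ugt1a1 conjugates bilirubin, the end product of heme breakdown, and Ugt1a6 enzymes conjugate small phenols. Thyroxine is also a substrate of liver glucuronosyltransferases, and drugs that induce these enzymes can speed its removal from blood, which is why the family is examined in studies of thyroid toxicity. The receptors CAR, PXR and AHR and the factor NRF2 are known to act on Ugt1a promoters, and the liver factor HNF1 on several of them.

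The locus makes its enzymes by exchanging the first exon. In the GENCODE annotation of GRCm38 each of 9 genes, these 7 with Ugt1a8 and Ugt1a7c, had its own first coding exon on the plus strand of chromosome 1 and 4 exons used by all, at chr1:88215044-88215175, chr1:88215795-88215882, chr1:88216138-88216357 and chr1:88218127-88218997. The first coding exons followed each other in the order Ugt1a10 (chr1:88055411-88056336), Ugt1a9 (chr1:88070800-88071678), Ugt1a8, Ugt1a7c, Ugt1a6b (chr1:88106862-88107799), Ugt1a6a (chr1:88138378-88139331), Ugt1a5 (chr1:88166012-88166903), Ugt1a2 (chr1:88200601-88201500) and Ugt1a1 (chr1:88211959-88212871). The 4 shared exons gave 735 coding bases, identical in all 9 genes, which is 45.8% of the coding sequence of Ugt1a1 and 46.4% of that of Ugt1a9. The other 849 to 870 coding bases came from the gene's own exon.

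Own exons differed in how well they can be told apart. Over coding bases, those of Ugt1a6a and Ugt1a6b were 97.0% identical, and only 426 of 809 windows of 50 bases (52.7%) in either occurred in no other own exon of the locus. Ugt1a9 and Ugt1a10 were 91.2% identical and Ugt1a5 and Ugt1a2 81.6%. The own exon of Ugt1a1 was at most 58.8% identical to any other, and all 821 of its windows were unique. The table gives no oligo position, so whether a feature reads an own exon or the shared exons is not known here, and values of Ugt1a6a and Ugt1a6b in particular may hold reads of the other gene. Levels are therefore compared between groups for 1 feature at a time and not between features.

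Each gene also has its own start site, and the 150 bases before it are shown for the members in which they held an HNF1 core. Across libraries the log2 levels of the Ugt1a6a and Ugt1a9 features had a Pearson r of 0.58 to 0.69 with Ugt1a1_66606, and that of Ugt1a10_67771 had -0.07. Of the members without the core, Ugt1a5_31476 had 0.5 and the Ugt1a2 features -0.17 and -0.08. Ugt1a10_67771 and the Ugt1a2 features were sparse, with medians of 1.9, 1.3 and 0.65 CPM over all libraries, which limits these r values. A link of core and level was not tested. RefSeq (GRCm38.p6) held an entry for 6 of the 7 genes, all but Ugt1a6b. The start site used for Ugt1a6a, chr1:88134809, lies upstream of its first coding exon at chr1:88138378-88139331. The windows are Ugt1a1 at chr1:88211809-88211958, Ugt1a6a at chr1:88134659-88134808, Ugt1a9 at chr1:88070629-88070778 and Ugt1a10 at chr1:88055261-88055410, all on the plus strand, with the HNF1 core GTTAAT or its reverse complement ATTAAC in capitals.
Ugt1a1: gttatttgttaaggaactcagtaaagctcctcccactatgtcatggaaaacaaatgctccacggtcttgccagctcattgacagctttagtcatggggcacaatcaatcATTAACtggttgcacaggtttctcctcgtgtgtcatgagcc
Ugt1a6a: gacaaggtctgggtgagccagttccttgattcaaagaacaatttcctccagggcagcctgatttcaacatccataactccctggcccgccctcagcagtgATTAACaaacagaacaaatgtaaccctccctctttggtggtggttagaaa
Ugt1a9: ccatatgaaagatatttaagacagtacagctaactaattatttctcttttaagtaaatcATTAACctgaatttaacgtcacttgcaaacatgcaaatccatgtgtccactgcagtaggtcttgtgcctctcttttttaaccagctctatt
Ugt1a10: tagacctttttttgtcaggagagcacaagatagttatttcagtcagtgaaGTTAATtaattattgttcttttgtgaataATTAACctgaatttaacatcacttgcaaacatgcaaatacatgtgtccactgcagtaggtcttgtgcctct
The core began 41 bases before the start in Ugt1a1, 50 in Ugt1a6a and 91 in Ugt1a9, and 100 and 71 bases before it in Ugt1a10. It was not in the windows of Ugt1a5 and Ugt1a2. Of 32851 mouse promoter windows of the same length 3.7% held it. Ugt1a9 and Ugt1a10 shared an unbroken stretch of 32 bases, the longest between any pair compared. Ugt1a6b, without a window, was not compared. The AHR core GCGTG (reverse complement CACGC) was in the window of Ugt1a5 alone among the members and in 20.5% of all windows, and the antioxidant response element core TGACNNNGC (reverse complement GCNNNGTCA) was in none of the members' and in 6.8% of all. None of these motifs overlapped another in a member's window. A match is a run of letters and not a measured site.

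Of 72 libraries 71 held 7765545 to 12682075 counts. Replicate 5 of 40 mg/mL at 14 d held 10796 counts and was left out, so n is 8 in that group and 9 in the others. Levels are in CPM, a count divided by the library total times its TMM factor (edgeR's scaling for differences in RNA makeup) and expressed per 1000000. That factor ran from 0.792 to 1.58, and 12 libraries lay above 1.2: 4 from 40 mg/mL at 14 d, 3 from 20 mg/mL at 28 d, 2 from 40 mg/mL at 28 d, and 1 each from 10 and 20 mg/mL at 14 d and the 28 d controls. Summed hepatocyte markers in these 12 ran from 8098 to 22493.5 CPM, a range that libraries with lower factors also entered. Tests are edgeR's quasi-likelihood tests over all 17050 features with Benjamini-Hochberg adjustment, a feature being called at an adjusted p under 0.05. Nothing in the labels pairs animals or names a batch.

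Ugt1a1, the bilirubin enzyme, was lower after 14 d at 40 mg/mL, in both of its features, and this was the only difference from controls called among the 7 genes. The feature Ugt1a1_66606 held 83.6% of all counts of the 12 features. Its level in the 14 d controls had a lowest value of 2339, a median of 2736 and a highest of 3284 CPM. In the 14 d animals at 40 mg/mL these values were 382, 1449 and 2592 CPM. In 6 of 8 treated animals the level was below every control, and the groups overlapped through the other two. The means were 2805 ± 299 CPM (SD, n = 9) in controls and 1472.5 ± 839 CPM (SD, n = 8) at 40 mg/mL, a fitted log2 fold change of -0.93 (SE 0.25, 1.9-fold lower, edgeR adjusted p = 0.0151).

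The other feature of the same gene, Ugt1a1_30191, gave the same picture at a lower count. It ran from 125 through a median of 145 to 189 CPM in the 14 d controls and from 28.5 through 83.4 to 154 CPM at 40 mg/mL. Here 5 of 8 treated animals were below every control. The log2 fold change was -0.75 (SE 0.24, 1.68-fold lower, edgeR adjusted p = 0.039). Across the 71 libraries the log2 levels of the features had a Pearson r of 0.98, and 0.97 after the group means were subtracted, as a description of libraries that share their scaling. The 2 called features were 2 of the 10 tested for the 7 genes, both lower, where 6.52% of all 17050 features were called in this comparison.

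**Figure D1:**
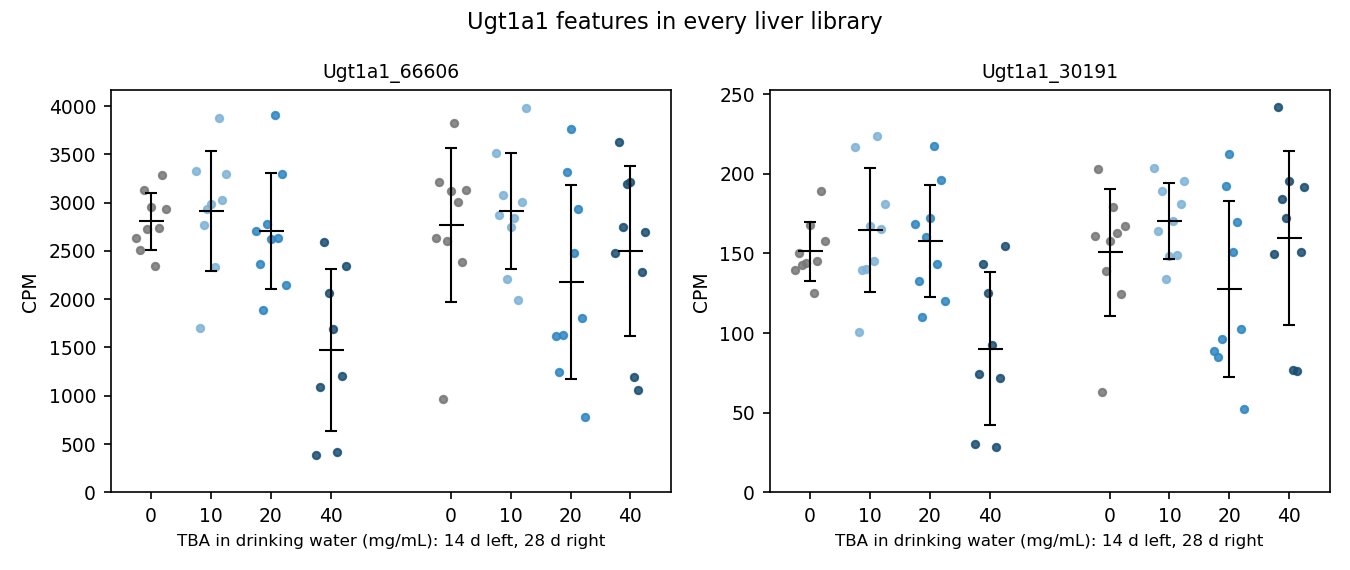
Levels of the features Ugt1a1_66606 (left) and Ugt1a1_30191 (right) in CPM in each of 71 libraries, by TBA concentration at 14 d and 28 d. Points are animals and bars the mean and SD of a group. At 40 mg/mL for 14 d the points of Ugt1a1_66606 spread from 382 to 2592 CPM, and 6 of 8 lie below all 9 controls.

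The 8 treated livers were not alike, and their Ugt1a1 level moved with the makeup of the library. The lowest Ugt1a1_66606 values, 382 and 418 CPM, were those of replicates 1 and 7, whose TMM factors were 1.55 and 1.58. Replicates 2 and 8, with factors of 1.39 and 1.3, held 1089.5 and 1202 CPM. Replicates 3, 4, 6 and 9, with factors of 0.978 to 1.12, held 1695 to 2592 CPM, while the controls had factors of 0.847 to 0.961. The factor enters the level by division. Without it the means were 2512 ± 259 CPM of the unscaled library total (SD, n = 9) in controls and 1662.5 ± 771 (SD, n = 8) at 40 mg/mL.

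The same pairing of a high factor with little Ugt1a1 appeared in animals that had drunk no TBA or had drunk it for longer. In the 28 d controls replicate 3 had a factor of 1.37 and 965 CPM of Ugt1a1_66606, against a group median of 3006. Over the 12 libraries with a factor above 1.2 the level, itself divided by that factor, ran from 382 to 2151 CPM. Over the other 59 it ran from 1627 through a median of 2783 to 3981 CPM. Those ranges overlap, as do the ranges of every other tested member. Part of the lower range in the 12 comes from the division. Without it they held 589.7 to 2708.9 CPM of the unscaled library total of Ugt1a1_66606, beside a mean of 2512 in the 14 d controls.

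**Figure D2:**
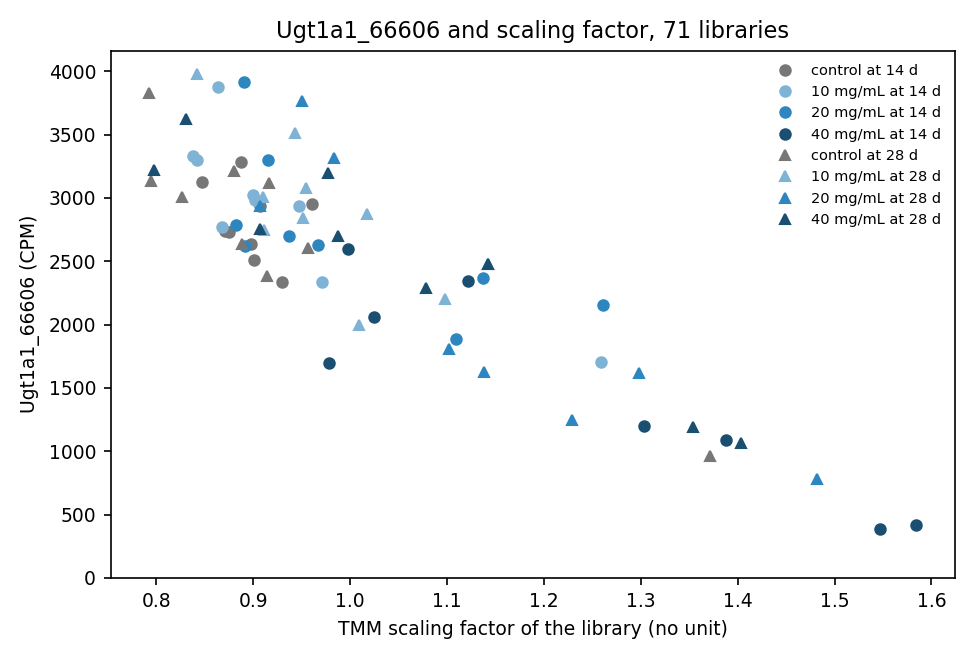
Level of Ugt1a1_66606 in CPM against the TMM factor of the library, which has no unit, for 71 libraries. Circles are 14 d and triangles 28 d groups, and darker blue is a higher concentration. Libraries with factors above 1.2 hold 382 to 2151 CPM, among them a 28 d control at 965 CPM. The level is itself divided by the factor, and undivided these libraries hold 589.7 to 2708.9 CPM.

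Hepatocyte markers, taken as a sum, ran lower at 40 mg/mL for 14 d than in the 14 d controls, with overlapping ranges. Their summed level (Alb, Ttr, Apoa1, Serpina1a, Hnf4a, Cps1 and Tat) was 32636.5 to 49197 CPM in the 14 d controls and 8098 to 35192 CPM at 40 mg/mL for 14 d. At that dose 4 of the 7 were called lower and none higher, where 6.52% of all features were called. The median log2 fold change of the 7 was -0.64, and Hnf4a, not called, had 0.18 (edgeR adjusted p = 0.644). None of the 7 had a group median of 0. Without replicates 1 and 7 (1.58% of all features called), and with the TMM factor as a covariate (3.26%), 1 was called lower. The summed level was 8098 to 11314 CPM in the treated replicates 1, 2, 7 and 8, and 10292 CPM in replicate 3 of the 28 d controls. The 20 most abundant features held 9.6% to 18.6% of the counts at 40 mg/mL for 14 d, against 20.5% to 23.7% in the 14 d controls. In scraped tissue, fewer cells of a type and less RNA per cell cannot be told apart. Of sinusoidal endothelial markers 1 of 5 tested was called lower, and no tested marker of cholangiocytes (3), Kupffer cells and macrophages (5), stellate cells (6), lymphocytes (4), erythroid cells (1), pancreas (1) or intestine (3) was called by edgeR, or had an unadjusted p under 0.05. The cholangiocyte genes Epcam, Sox9 and Cftr, the pancreatic genes Prss2, Cpa1 and Amy2a5 and the intestinal genes Muc2 and Cdx2 had a median of 0 in both groups. The part of hepatocyte content in the Ugt1a1 difference was not tested.

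The call rested on few animals and on the model. Without replicate 1 of the treated group, or without replicate 7, neither feature was called. Without both, the log2 fold changes were -0.62 (edgeR adjusted p = 0.214) for Ugt1a1_66606 and -0.46 (adjusted p = 0.372) for Ugt1a1_30191. With the log2 TMM factor as a covariate the log2 fold changes were -0.09 (adjusted p = 0.833) and 0.03 (adjusted p = 0.958). The factors of the 2 groups did not overlap (0.847 to 0.961 in controls, 0.978 to 1.58 treated). The covariate fit therefore cannot tell dose and factor apart in this comparison. Neither feature was called when only the 2 groups compared entered the fit, with log2 fold changes of -0.93 (adjusted p = 0.0697) and -0.75 (adjusted p = 0.124). With the failed library kept neither was called, at larger fold changes of -1.11 (adjusted p = 0.0928) and -0.92 (adjusted p = 0.0561).

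Lower doses and the longer exposure gave no called difference in Ugt1a1. The median of Ugt1a1_66606 at 14 d was 2987 CPM at 10 mg/mL and 2631 CPM at 20 mg/mL. Their log2 fold changes against the 14 d controls were 0.06 (95% interval -0.42 to 0.53) and -0.05 (-0.53 to 0.42). At 28 d the medians were 3006 CPM in controls, 2868.5 at 10 mg/mL, 1808 at 20 mg/mL and 2700 at 40 mg/mL. The lowest animals there held 965, 1997, 779 and 1062 CPM, and the highest 3830, 3981, 3765.5 and 3625 CPM. The group at 20 mg/mL for 28 d was thus the next lowest after 40 mg/mL at 14 d, with a log2 fold change of -0.35 (SE 0.24, edgeR adjusted p = 0.52). At 40 mg/mL for 28 d it was -0.15 (95% interval -0.62 to 0.33).

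By median the 8 groups of Ugt1a1_66606 ranked, from the top, 28 d controls, 10 mg/mL at 14 d, 10 mg/mL at 28 d, 14 d controls, 40 mg/mL at 28 d, 20 mg/mL at 14 d, 20 mg/mL at 28 d and 40 mg/mL at 14 d. No neighbours in that order were farther apart than the larger of their SDs. The same held for all 70 such gaps over the 10 tested features. The linear trend fitted on dose at 14 d was -0.25 on the log2 scale per 10 mg/mL for Ugt1a1_66606 (SE 0.06, edgeR adjusted p = 0.00684). For Ugt1a1_30191 it was -0.2 (SE 0.06, adjusted p = 0.0178), where 7.99% of all features had a called trend. The slopes do not describe a graded fall. From 10 to 40 mg/mL the log2 fold changes were 0.06, -0.05 and -0.93 for Ugt1a1_66606 and 0.12, 0.06 and -0.75 for Ugt1a1_30191. Both trends were lost without replicates 1 and 7 of the highest dose (adjusted p = 0.159 and 0.284) and with the factor as a covariate (adjusted p = 0.794 and 0.996). At 28 d the trend of Ugt1a1_66606 was -0.05 (SE 0.06, adjusted p = 0.899).

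The 40 mg/mL effect on Ugt1a1 at 14 d was not shown to differ from that at 28 d. The difference of the effects, 28 d minus 14 d, was 0.78 on the log2 scale (95% interval 0.1 to 1.47) for Ugt1a1_66606 and 0.83 (0.2 to 1.47) for Ugt1a1_30191, with edgeR adjusted p of 0.705 and 0.575. Over the whole table edgeR called 0 features for this difference at 10, 20 and 40 mg/mL, with 732, 537 and 1081 at an unadjusted p under 0.05, and DESeq2 called 0, 0 and 31.

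Ugt1a6a, which conjugates phenols, had no called change in its 2 features. Ugt1a6a_70151 ran from 46 through a median of 114.5 to 172 CPM in the 14 d controls and from 25.2 through 55 to 169 CPM at 40 mg/mL. Of the 8 treated animals 3 were below every control, and the highest of them was near the top of the controls. The log2 fold change was -0.76 (SE 0.41, edgeR adjusted p = 0.31). Ugt1a6a_29170 ran from 22.1 through 33.9 to 49.4 CPM in those controls and from 15.3 through 25.7 to 39.4 CPM at 40 mg/mL, a log2 fold change of -0.42 (SE 0.21, adjusted p = 0.273).

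After 28 d at 40 mg/mL Ugt1a6a_29170 lay on the other side of its controls. It ran from 11 through a median of 31.5 to 41.1 CPM in the 28 d controls and from 18.2 through 41.2 to 65.2 CPM at 40 mg/mL, and 5 of 9 treated animals were above every control. The log2 fold change was 0.41 (SE 0.21, edgeR adjusted p = 0.795). The difference of the 40 mg/mL effects between durations was 0.83 (SE 0.3), with an unadjusted p of 0.00712 and an adjusted p of 0.498. With the TMM factor as a covariate the 28 d value became 0.66 (adjusted p = 0.0305).

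Ugt1a6b, the near copy of Ugt1a6a, was counted at 3.45 CPM (median, lowest 1.9, highest 4.44) in the 14 d controls. At 20 mg/mL for 14 d it ran from 2.35 through 4.33 to 9.52 CPM, with 4 of 9 animals above every control and a log2 fold change of 0.80 (SE 0.34, unadjusted p = 0.0225, edgeR adjusted p = 0.7). With 40 mg/mL for 14 d it ran from 0 through 3.27 to 8.19 CPM, with 2 animals below and 2 above all controls. The 28 d groups had medians of 3.51, 3.37, 4.26 and 4.77 CPM from control to 40 mg/mL, and 4 of 9 animals at 40 mg/mL exceeded every control (log2 fold change 0.55, SE 0.34, adjusted p = 0.865).

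Ugt1a5 had no called change in level, and its mean share of the family's counts was larger at the highest dose at 14 d. In level Ugt1a5_31476 ran from 88.8 through 132 to 291 CPM in the 14 d controls, from 28.5 through 189 to 472 CPM at 10 mg/mL, from 72.1 through 251 to 350 CPM at 20 mg/mL and from 41.9 through 129 to 397 CPM at 40 mg/mL. The treated groups spread to both sides of the controls. Log2 fold changes were 0.36, 0.53 and 0.22 in order of dose (SE 0.37, 0.37 and 0.38, edgeR adjusted p 0.999, 0.917 and 0.831). At 28 d they were 0.32, 0.06 and 0.23, with SE 0.37 and none called. The other feature, Ugt1a5_75698, did not pass the filter, with 288 counts over all libraries and 0 in 23 of 71.

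Each library's summed counts of the 12 features, which leave out Ugt1a7c and Ugt1a8, show how counts split among these features apart from library scaling. Whether a feature reads shared exons is not known, so the share of a feature need not be that of its gene. The summed counts are given here as a description. Ugt1a1_66606 took 85.9% ± 2.14 (SD, n = 9) of them in the 14 d controls and 77.6% ± 7.12 (SD, n = 8) at 40 mg/mL for 14 d. Ugt1a5_31476 took 4.67% ± 1.43 and 11.1% ± 6.51, with a range of 3% to 7.29% in controls and 3.3% to 21.1% in treated animals. Replicates 1 and 7, which held the least Ugt1a1, had Ugt1a5 shares of 21.1% and 17.6%, and replicates 3 and 6, with factors near 1, had 12.2% and 15.3%. Ugt1a1_30191 took 4.64% ± 0.36 and 4.94% ± 0.56. In the other 6 groups the mean share of Ugt1a5_31476 was 4.44% to 6.68%, and that of Ugt1a1_66606 81.9% to 85.7%.

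**Figure D3:**
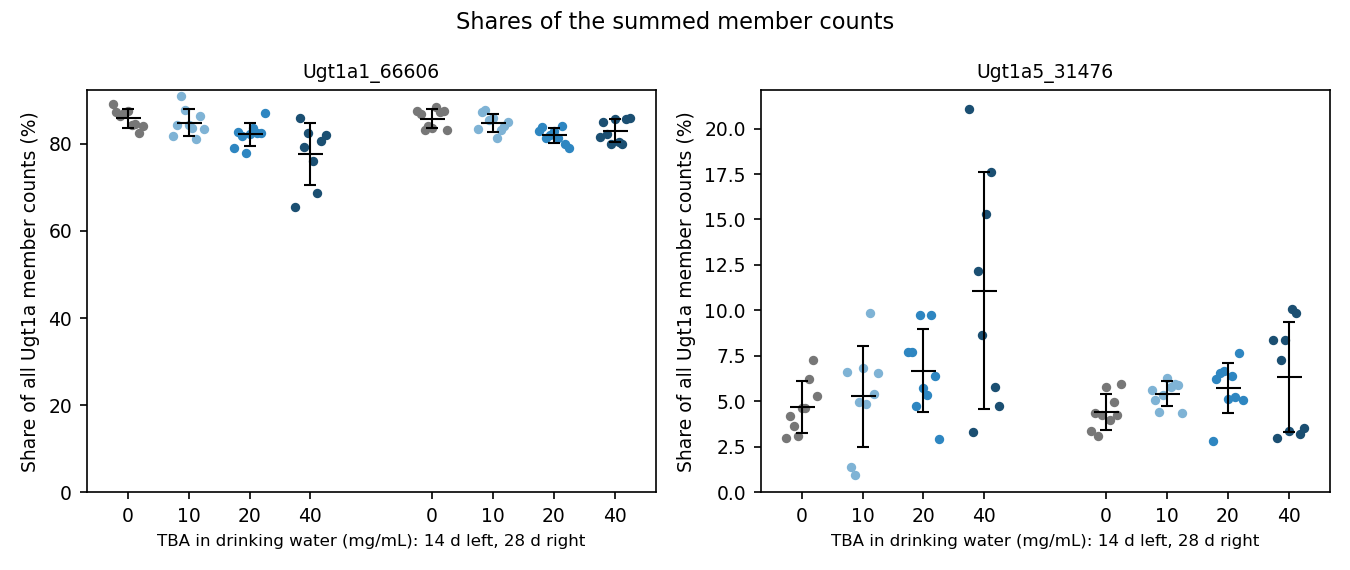
Share, in percent, of the summed counts of the 12 Ugt1a features taken by Ugt1a1_66606 (left) and Ugt1a5_31476 (right) in each library. Points are animals and bars the mean and SD of a group. At 40 mg/mL for 14 d the Ugt1a5_31476 share runs from 3.3% to 21.1%, against 3% to 7.29% in the controls.

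Ugt1a9, which conjugates phenols and many drugs, was low and scattered. It ran from 1.93 through 3.83 to 9.58 CPM in the 14 d controls and from 0.69 through 2 to 9 CPM at 40 mg/mL, where 4 of 8 animals were below every control (log2 fold change -0.29, SE 0.62, edgeR adjusted p = 0.867). In the 28 d controls it ran from 0 through 9.63 to 22.6 CPM and at 40 mg/mL from 0.428 through 13.3 to 20.6 CPM (log2 fold change 0.34, SE 0.57, adjusted p = 0.981). The controls of 28 d over those of 14 d gave a log2 fold change of 1.05 (SE 0.59, adjusted p = 0.999). The TMM covariate turned the 14 d value at 40 mg/mL to 1.63 (adjusted p = 0.0222) and made the 28 d value 1.54 (adjusted p = 0.0425). At 14 d the factors of these 2 groups did not overlap, so that fit cannot tell dose and factor apart. The 12 libraries with factors above 1.2 held at most 4.71 CPM of Ugt1a9, and the other 59 had a median of 7.41 CPM. These levels are divided by the factor, and undivided the 12 held at most 6.38 CPM.

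Ugt1a10 and Ugt1a2 were close to the limit of detection. Ugt1a10_67771 had medians of 1.82 CPM in the 14 d controls and 2.28 CPM at 40 mg/mL, with 3 of 8 treated animals above every control and a log2 fold change of 0.71 (SE 0.5, edgeR adjusted p = 0.481). At 28 d its value at 40 mg/mL was -0.53 (SE 0.5, adjusted p = 0.957). The feature Ugt1a10_29745 was at 0 counts in 69 of 71 libraries and did not pass the filter. Ugt1a2_76459 had medians of 0.833 to 1.84 CPM and Ugt1a2_31225 of 0.222 to 0.968 CPM over the 8 groups, with 4 and 13 libraries at 0. After 14 d at 40 mg/mL their log2 fold changes were 0.3 (95% interval -0.8 to 1.41) and 1.05 (-0.64 to 2.73). Intervals of this width leave the direction undetermined at this depth.

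**Figure D4:**
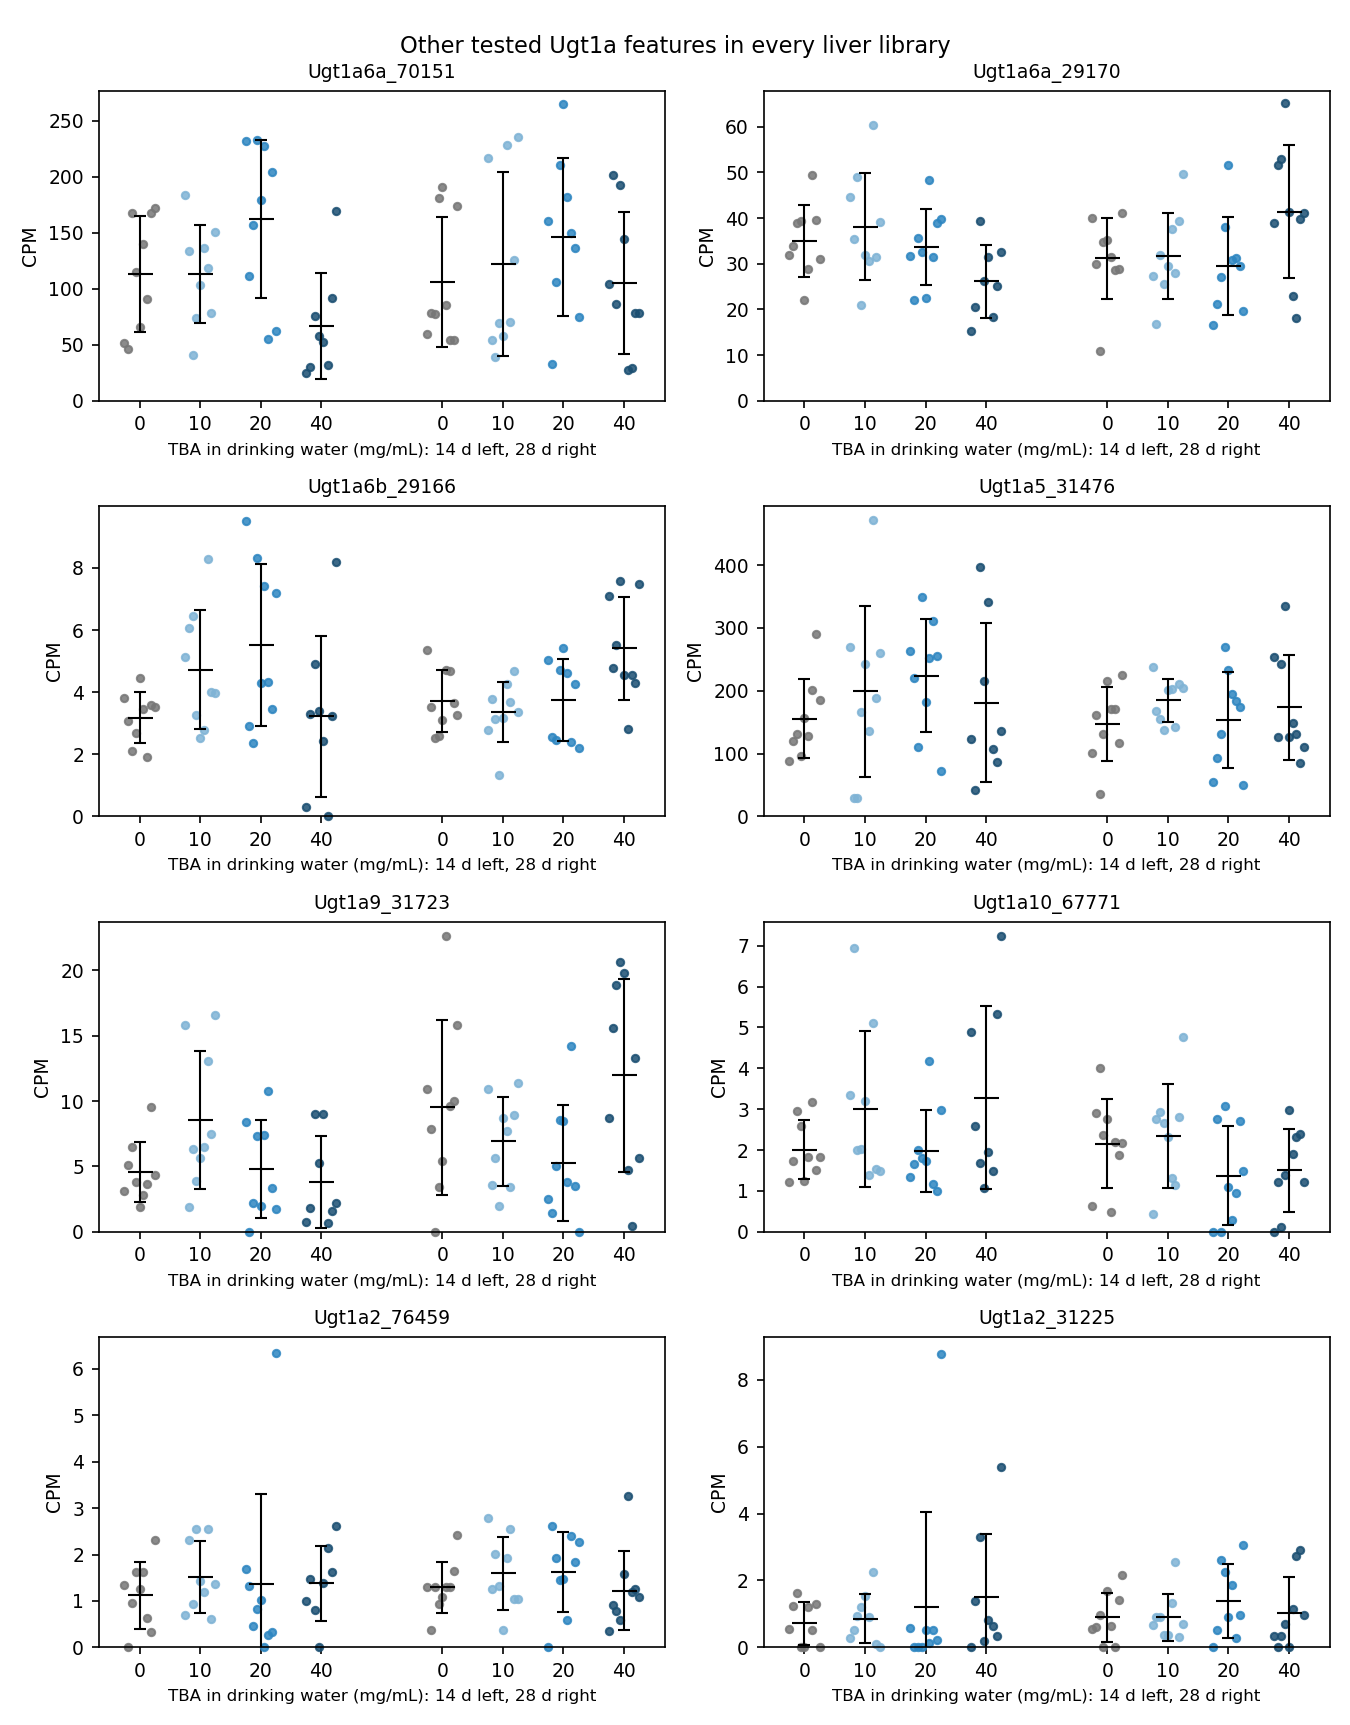
Levels in CPM of the other 8 tested Ugt1a features in each library, by TBA concentration at 14 d and 28 d. Points are animals and bars the mean and SD of a group, and each panel has its own axis from 0. In no panel does a treated group lie wholly outside the controls of its duration. At 20 mg/mL for 14 d a single animal holds 6.34 CPM of Ugt1a2_76459 and 8.76 CPM of Ugt1a2_31225.

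Over the whole design 0 of the 10 tested member features were called in the remaining comparisons. Those were 10 mg/mL at 14 d (0% of all features called), 20 mg/mL at 14 d (0.0352%), 10 mg/mL at 28 d (0%), 20 mg/mL at 28 d (0.158%), 40 mg/mL at 28 d (0.00587%), the dose trend at 28 d (0.129%), the differences of the 10, 20 and 40 mg/mL effects between durations (0%, 0% and 0%) and the 28 d against the 14 d controls (0%). By edgeR at an unadjusted p under 0.05 the members counted 0, 1, 0, 0 and 0 in the 5 dose comparisons in that order, 1 in the 28 d trend, 0, 0 and 3 in the differences and 0 in the controls. Over all 17050 features the counts were 736, 1032, 707, 2583 and 1078 in the dose comparisons and 1346 in the trend. They were 732, 537 and 1081 in the differences and 516 in the controls. The 3 were Ugt1a6a_29170 and both features of Ugt1a1. DESeq2's Wald test called 0 members in each of these comparisons. For 40 mg/mL at 14 d the median log2 fold change of the 10 features was -0.14, with 5 positive and 5 negative, beside 0.06 over all features. At 10 and 20 mg/mL for 14 d the members' medians were 0.31 and 0.19, and at 28 d 0.09, -0.03 and 0.14 in order of dose. Comparisons at one duration share their control animals.

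**Figure D5:**
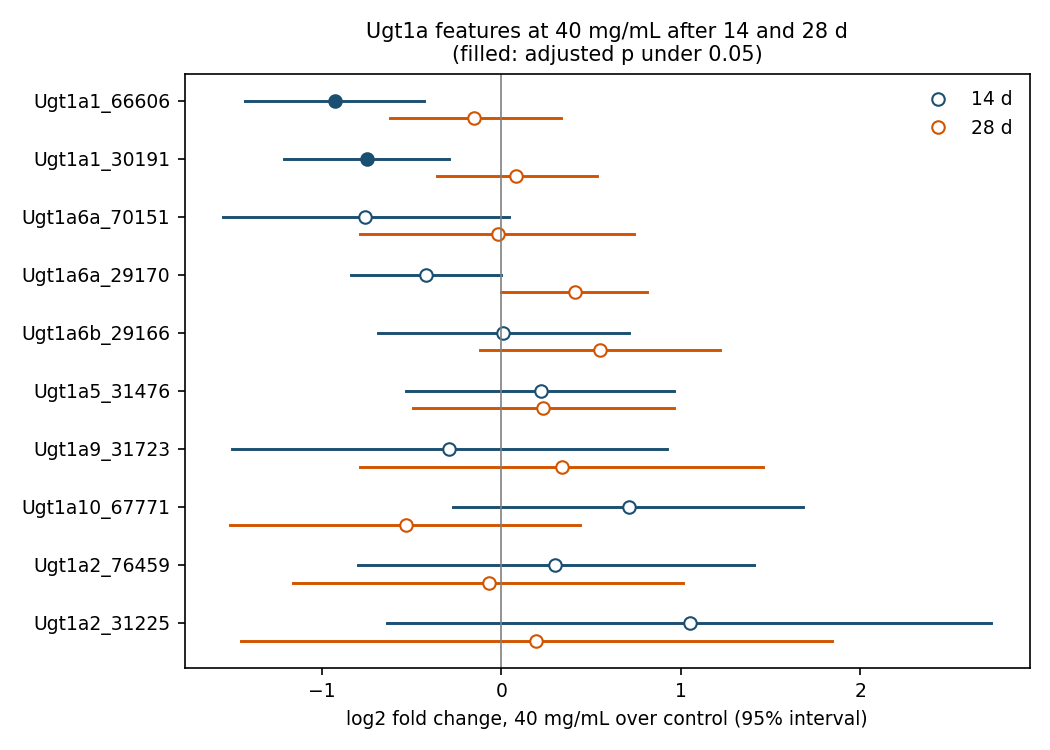
Log2 fold change at 40 mg/mL over the control of the same duration, with 95% intervals, for the 10 tested Ugt1a features at 14 d (blue) and 28 d (orange). Filled points have an adjusted p under 0.05. They are Ugt1a1_66606 at -0.93 and Ugt1a1_30191 at -0.75, both at 14 d.

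Among the 4 features of the other 2 genes of the locus, 2 were called higher in the comparison that called Ugt1a1 lower. Over all features 6.52% were called there. At 40 mg/mL for 14 d Ugt1a8_62586 rose with a log2 fold change of 2.00 (SE 0.44, edgeR adjusted p = 0.00234) and Ugt1a7c_74259 with 2.11 (SE 0.44, adjusted p = 0.00149). Both were sparse, with medians of 2.49 and 0.871 CPM in the 14 d controls and 11.1 and 6.14 CPM at 40 mg/mL. In each, 6 of 8 treated animals were above every control. Ugt1a7c_72165 and Ugt1a7c_29171, features of the same gene with control medians of 402.5 and 136.5 CPM, were not called. Their log2 fold changes were -0.34 (edgeR adjusted p = 0.282) and -0.28 (adjusted p = 0.567). The calls of Ugt1a8_62586 and Ugt1a7c_74259 held without replicates 1 and 7 (adjusted p = 0.0103 and 0.00422). They did not hold with the TMM covariate (adjusted p = 0.095 and 0.0504). Whether the change of these 2 features differs from that of Ugt1a1 was not tested.

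Of 11 tested genes of co-substrate supply and conjugate export, 1 was called higher and 1 lower at 40 mg/mL for 14 d. The median log2 fold change of the 11 was -0.15, and 6.52% of all features were called in this comparison. Abcc4, an export pump of the basolateral membrane, rose (log2 fold change 2.57, SE 0.7, edgeR adjusted p = 0.0151), from a mean of 0.435 to 2.6 CPM. Slc35d1, a carrier of UDP-glucuronic acid into the endoplasmic reticulum, fell (-0.5, SE 0.15, adjusted p = 0.0325). Without replicates 1 and 7 the values were 2.5 (adjusted p = 0.0614) and -0.52 (adjusted p = 0.102), and with the covariate 2.21 (adjusted p = 0.104) and -0.39 (adjusted p = 0.211), so neither call was made though the fold changes were of similar size. Abcc3, another export pump, had -0.48 (adjusted p = 0.205).

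Among 10 genes of heme breakdown and bilirubin handling, 1 was called higher and 1 lower at 40 mg/mL for 14 d. Over all features 6.52% were called in this comparison. Gstm1, a glutathione transferase, rose (log2 fold change 0.77, SE 0.21, edgeR adjusted p = 0.0126; 5 of 8 animals above every control). Slco1a1, an uptake carrier of organic anions, fell (-2.1, SE 0.59, adjusted p = 0.0196; 6 of 8 animals below every control). Slco1b2, which takes up bilirubin, had -0.61 (adjusted p = 0.21). Without replicates 1 and 7 Gstm1 was called (0.85, adjusted p = 0.0275) and Slco1a1 was not (-1.86, adjusted p = 0.149). With the covariate neither was, at 0.67 (adjusted p = 0.121) and -0.8 (adjusted p = 0.497).

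Of 13 receptors and factors that act on Ugt1a genes edgeR called 0 at 40 mg/mL for 14 d, with 4 at an unadjusted p under 0.05, and 1 in the 14 d dose trend. Over all 17050 features 7.99% had a called trend, and 3236 had an unadjusted p under 0.05 at 40 mg/mL for 14 d. Among the 13 the smallest adjusted p at that dose were those of Thrb, a thyroid hormone receptor (log2 fold change 0.47, adjusted p = 0.0626), Rxra, the partner of CAR and PXR (-0.39, adjusted p = 0.0799), and Ahr (0.47, adjusted p = 0.118). With the covariate 1 of the 13 was called lower, Foxa2, a liver factor named after its value was seen (-1.0, adjusted p = 0.0187, against -0.48 and 0.303 without it). Counts of called target genes can be read against the 6.52% called over all features in this comparison. That share was 1.58% without replicates 1 and 7 and 3.26% with the covariate. Of 16 CAR and PXR targets 2 were higher and 2 lower, 3 and 0 without replicates 1 and 7, and 4 and 0 with the covariate. Cyp2b10, the best known CAR target in mouse liver, rose (log2 fold change 4.09, SE 0.81, adjusted p = 0.000796), from 63.2 ± 25 CPM (SD, n = 9) to 1079.5 ± 2206 (SD, n = 8), with 4 animals above and 1 below every control. Cyp2c54 and Cyp3a41a fell (-1.16 and -1.04, adjusted p = 0.0414 and 0.0457) and were not called in either alternative.

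Of 4 tested AHR targets Cyp1a2 alone was called, lower (log2 fold change -1.44, SE 0.31, edgeR adjusted p = 0.00209), with all 8 animals below every control. It was called without replicates 1 and 7 (adjusted p = 0.0395) and not with the covariate (adjusted p = 0.392). In the 14 d dose trend 2 of the 4, Nqo1 and Tiparp, were called higher and Cyp1a2 lower, where 7.99% of all features were called. Cyp1a1, Ahrr and Aldh3a1 were below the filter. Of 15 tested NRF2 targets 3 were higher and none lower. Without replicates 1 and 7 (1.58% of all features called), and with the covariate (3.26%), 2 were higher. The 3 were G6pdx, which makes NADPH (2.01, SE 0.49, adjusted p = 0.00588), Gstm1 and Abcc4, the last 2 also counted above. Nqo1, the classic NRF2 target, had 0.68 (adjusted p = 0.0681). Of 10 PPARA targets edgeR called 0, with 2 at an unadjusted p under 0.05, Acot1 having the smallest adjusted p (1.06, adjusted p = 0.122). Over all 17050 features 3236 had an unadjusted p under 0.05 in this comparison.

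Of 10 tested genes of the sister families Ugt2 and Ugt3, 5 were called lower and none higher at 40 mg/mL for 14 d. Their median log2 fold change was -0.68 over the 10, and 6.52% of all features were called in this comparison. The 5 Ugt2 and Ugt3 genes not called ran from -0.74 (Ugt2b5, edgeR adjusted p = 0.0514) to 0.21 (Ugt2b35, adjusted p = 0.514). Ugt2b35 is named after its value was seen. Ugt2b1, a steroid and drug transferase, fell from 97.2 ± 17.7 CPM (SD, n = 9) to 38.7 ± 19.4 (SD, n = 8), a log2 fold change of -1.33 (SE 0.26, edgeR adjusted p = 0.000764), and 7 of 8 animals were below every control. Ugt2a3 (-0.91, adjusted p = 0.00134) and Ugt3a2 (-0.75, adjusted p = 0.00186) also had 7 of 8 animals below. Without replicates 1 and 7, 2 of the 10 were called lower, where 1.58% of all features were called. With the covariate 1 was called higher and none lower, where 3.26% of all were called.

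The features whose log2 level followed Ugt1a1_66606 most closely over the 71 libraries, among 9965 with a mean of at least 5 CPM outside the 7 genes, were Plg (r = 0.951), Slc27a5 (0.934), Pigr (0.932), Hsd11b1 (0.929) and Serpinc1 (0.928). Plg and Serpinc1 encode the plasma proteins plasminogen and antithrombin, Slc27a5 activates bile acids, Pigr carries immunoglobulin A, and Hsd11b1 regenerates active glucocorticoid. The same 5 led after the group means were subtracted, at 0.934 for Plg to 0.912 for Serpinc1. They did not stand alone: 260 features had an r above 0.8, or 181 after the group means were subtracted. These libraries share their scaling, so the values describe likeness only. Among the other members the r with Ugt1a1_66606 was 0.69 for Ugt1a9_31723, 0.68 for Ugt1a6a_29170, 0.63 for Ugt1a6b_29166, 0.58 for Ugt1a6a_70151 and 0.5 for Ugt1a5_31476, but -0.07 for Ugt1a10_67771 and -0.17 and -0.08 for the Ugt1a2 features.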

How the data were processed

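The deposited values are raw counts per feature, as the whole numbers in the table show. Per the submitters' processing notes, bcl2fastq 2.20 and Bowtie were used. The Bowtie version, the genome build and the counting step are not given in the sources used here. The 7 members and all gene and marker lists were chosen with earlier results of these data known. Libraries under 100000 counts were left out (1 of 72). No columns were identical, and chi-square per degree of freedom between replicates was at least 7.15. Labels give separate animals, so p-values measure the spread between animals.

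Features were filtered with edgeR's filterByExpr, leaving 17050, and scaled with TMM. edgeR 4.0.16 (R 4.3.3) quasi-likelihood tests on all 8 groups in one model, with Benjamini-Hochberg adjustment at 0.05, gave the log2 fold changes. The SE is the fold change divided by the root of F, and the 95% intervals assume a normal error. Log2 levels for correlations used a prior count of 2. The procedure was tested on simulated data. All member features are named. Each listed gene was read from its most abundant feature, and up to 4 per list with the smallest p at 40 mg/mL for 14 d could be named. Features most like Ugt1a1 were the 5 with the highest r. Alternatives were DESeq2 1.42.0, its size factors, no filter, the failed library kept, the TMM factor as a covariate, the compared groups alone, and libraries left out. Exon coordinates come from GENCODE on GRCm38 and promoter sequences from RefSeq on GRCm38.p6. Counts of member features, 8 to 1751259 over all libraries, limit precision.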

Additional observations from a re-analysis of the deposited data

Results flagged for a closer look

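In 80 sets of one feature in one group, 7 (8.75%) held an animal far from the others by Dixon's ratio at its 95% critical value, where chance gives about 1 in 20. Replicate 3 of the 28 d controls had 965 CPM of Ugt1a1_66606 (next 2386 CPM, group median 3006) and 11 CPM of Ugt1a6a_29170 (next 28.6 CPM). Its TMM factor was 1.37. Replicate 9 of 20 mg/mL at 14 d had 6.34 CPM of Ugt1a2_76459 (next 1.68) and 8.76 CPM of Ugt1a2_31225 (next 0.59). Replicate 6 of 40 mg/mL at 28 d had 3.27 CPM of Ugt1a2_76459 (next 1.57). Replicate 7 of 10 mg/mL at 28 d had 2.55 CPM of Ugt1a2_31225 (next 1.32). Replicate 9 of 40 mg/mL at 14 d had 169 CPM of Ugt1a6a_70151 (next 91.9, group median 55). No member differed between durations by the adjusted test.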

How the results depend on the processing

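Counts of called members moved from 2 at 40 mg/mL for 14 d to 1 without the low-count filter (Ugt1a1_66606), 0 with the failed library kept, 1 with the TMM covariate (Ugt1a9_31723, reversed from -0.29 to 1.63, adjusted p = 0.0222, with Ugt1a1_30191 at 0.03 reversed from -0.75), 0 without replicates 1 and 7 and 0 in the compared groups alone. Leaving out 1 library at a time gave 0 to 2, and log2 fold changes of -1.1 to -0.78 (adjusted p 0.00371 to 0.0586) for Ugt1a1_66606 and -0.91 to -0.62 (0.0142 to 0.129) for Ugt1a1_30191. The count was 0 without treated replicate 1 or 7, and 1 without treated replicate 2 or 8 or control replicate 2, 5, 8 or 9. The trend at 14 d moved from 2 to 1 with the failed library kept, 0 with the covariate (Ugt1a1_30191 from -0.2 to 0.0) and 0 without replicates 1 and 7. With the covariate 2 members, Ugt1a6a_29170 and Ugt1a9_31723, were called higher at 40 mg/mL for 28 d and in the trend at 28 d, from 0. In that fit 0.387% and 0.997% of all features were called. The cause of these moves was not tested. At 28 d leaving out 1 library gave 0 called throughout. The other 69 counts kept their value, as did 32 mean shares within 1 SD. DESeq2 and its size factors called the same number, and the median of all features, 0.06 at 40 mg/mL for 14 d, lay between -0.06 and 0.07. Over all features 1111 were called there, 1390 by DESeq2, 934 without the filter, 645 in the compared groups alone, 555 with the covariate, 464 with the failed library and 273 without replicates 1 and 7. DESeq2 called 21 features against 6 at 20 mg/mL for 14 d, 12 against 0 at 10 mg/mL for 14 d, 287 against 27 at 20 mg/mL and 33 against 1 at 40 mg/mL for 28 d, and 73 against 22 in the 28 d trend. The SE of Ugt1a2_31225 against control reached 0.86, which limits what could be called. No paired analysis was possible because the labels give no numbers that pair animals across groups.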

Other observations

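Ugt1a6a_70151 varied more between animals of a group than the other feature of its gene. Its coefficient of variation was 38.7% to 71% over the 8 groups, against 22.4% to 36.2% for Ugt1a6a_29170. In the 28 d controls 3 animals held 174 to 191 CPM and the other 6 held 54.1 to 85.5 CPM. Across 71 libraries the log2 levels of these features had an r of 0.48, and those of the Ugt1a2 features 0.36, where those of the Ugt1a1 features had 0.98.

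The features of Ugt1a5 were far apart in counts, with 123250 for Ugt1a5_31476 and 288 for Ugt1a5_75698 over all libraries, and so were those of Ugt1a10, with 1613 for Ugt1a10_67771 and 8 for Ugt1a10_29745, the latter from 2 libraries of 40 mg/mL at 28 d.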
